A study of Mus musculus with 4 samples.

Results

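DNA replication genes are 47 genes whose products license, open and copy chromosomal DNA, from the origin recognition complex to the E-type cyclins. They were taken by name, as every probe set whose gene symbol in the platform table is one of the 47, which gave 101 of the 45101 probe sets of the array and covered all 47 genes. Expression was measured on 4 arrays of RNA from structures cut by laser from stained frozen sections of wild-type CD-1 fetal mouse kidney at E15.5 (Theiler stage 23). One structure was the cortical collecting duct, which descends from the ureteric bud and gathers urine in the outer kidney, with 1 array. The other was the loop of Henle anlage, from which the thick ascending limb forms, with 3 arrays, numbered 1 to 3. RNA for an array came from about 50 sections of 5 kidneys pooled, and was amplified in 2 rounds. How a structure was picked out under the laser, and whether pools shared kidneys, is not in the labels, so errors describe the spread between these samples, which may be technical.

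In each cell cycle, the origin recognition complex marks start sites on the DNA, and Cdc6 and Cdt1 then load the ring-shaped Mcm2 to Mcm7 helicase there. On entry to S phase, Cdc45 and the GINS proteins join the helicase, and primase, polymerases, the Pcna clamp and the single-strand binding protein RPA build the moving fork. Transcripts of many of these genes peak around the start of S phase under E2F transcription factors, and in the fetal kidney dividing cells are found in the nephron progenitors, the ureteric tips and the growing tubules.

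Promoter windows of the members held an E2F-type motif more often than those of other genes. The search covered the window from 250 bases before to 50 bases after each annotated start (RefSeq, GRCm38.p6), on both strands, for TTTCCCGC, TTTCGCGC, TTTGCCGC or TTTGGCGC. A window was found for 38 of the 47 members, and 15 of these genes (39.5%) held the motif, against 4.61% of the 10200 tested genes with a window and 2.6% of all 27025 genes in the table. The CCAAT box, also searched on both strands, was in a window of 63.2% of the members with one and of 42.7% of the tested genes. A match is a run of letters and was not measured as a binding site. The stretches below run from 200 to 21 bases before the start of Cdc6, the helicase loader, and of 3 helicase subunits, and show how the motif sits there. Capitals mark the motif on either strand, and in Mcm5 and Mcm6 a forward and a reverse copy overlap in a single run of capitals. The Cdc6 stretch is chr11:98907951-98908130 (plus strand), that of Mcm5 chr8:75109309-75109488 (plus strand), that of Mcm6 chr1:128359726-128359905 (minus strand) and that of Mcm7 chr5:138171904-138172083 (minus strand).
Cdc6: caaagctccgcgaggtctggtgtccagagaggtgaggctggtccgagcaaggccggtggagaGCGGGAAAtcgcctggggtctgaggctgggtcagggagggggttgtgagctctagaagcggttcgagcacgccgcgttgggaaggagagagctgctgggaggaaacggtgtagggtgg
Mcm5: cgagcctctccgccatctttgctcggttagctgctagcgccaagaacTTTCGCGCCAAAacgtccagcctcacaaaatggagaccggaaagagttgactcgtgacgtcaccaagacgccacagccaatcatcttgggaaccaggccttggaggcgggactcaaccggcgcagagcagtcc
Mcm6: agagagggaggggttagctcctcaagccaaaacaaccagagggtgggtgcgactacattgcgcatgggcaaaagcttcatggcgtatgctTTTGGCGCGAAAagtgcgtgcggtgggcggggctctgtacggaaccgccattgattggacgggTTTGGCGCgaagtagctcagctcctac
Mcm7: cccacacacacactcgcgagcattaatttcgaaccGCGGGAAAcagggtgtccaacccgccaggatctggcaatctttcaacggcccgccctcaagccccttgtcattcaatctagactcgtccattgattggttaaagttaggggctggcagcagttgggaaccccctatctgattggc

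The other members whose windows held the motif were Orc1, Orc3, Cdt1, Mcm3, Mcm8, Gins3, Rfc3, Pola1, Pold1, Pole2 and Lig1. The 15 members with the motif had a median difference of −0.08 between the structures (collecting duct minus anlage, log2) and 9 of them were lower in value. Among the 23 tested members whose window lacked these words the median was −0.29, and 15 had a lower value.

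The arrays were checked against markers of the labelled structures. All 8 loop markers, among them Slc12a1 and Umod, were below every anlage array in the collecting duct, and all 8 tested collecting duct markers had higher values there, 7 of them, among them Gata3 and Wnt9b, above every anlage array. Hoxb7, a further collecting duct marker, lay below the limit for dim genes. Anlage array 2 lay between the structures on the sums of both lists. The summed normalised signal of the 9 collecting duct markers was 95835 in the duct, against 10996 in anlage array 1, 42678 in array 2 and 7103 in array 3. For the 8 loop markers the sums were 2451 against 87805, 20422 and 69674. The duct marker Calb1 weighed heavily in the array 2 sum. It stood at 13.88 in the duct and 11.50, 14.86 and 11.30 in the anlage, so array 2 exceeded the duct. Gata3, the next brightest duct marker in array 2, stood at 15.17 against 11.95, 12.50 and 10.46. Wnt7b was lowest in array 2, at 10.95 against 10.53, 9.98 and 10.53. The anlage arrays also differed in RNA quality. For Gapdh, the 3′ to 5′ signal ratio, a common measure of RNA shortening, came to 12.05 for the duct and to 10.25, 54.08 and 26.02 for anlage arrays 1, 2 and 3.

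Values are log2 of the quantile-normalised signal plus an offset of 109.6, a difference is collecting duct minus the mean of the 3 anlage arrays, and levels of different genes are not compared. Of the 47 members, 46 passed the limit for dim genes and were tested. The exception was Ccne2, an E-type cyclin that activates Cdk2, at 7.92 in the collecting duct and 7.69, 8.94 and 8.45 in anlage arrays 1, 2 and 3.

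The collecting duct array had lower values than the anlage mean for most replication genes, but no member passed the test. Limma (Benjamini-Hochberg adjustment over 12642 genes) called 0 members at an adjusted p of 0.05, the same as over all genes, where it called 0 (0%). At an unadjusted p under 0.05 there was 1 member lower, the GINS subunit Gins4 (2.17% of 46, against 2.23% of all tested genes), and 0 higher (1.18% of all tested genes). Of the 46 tested members, 32 had a lower value and 14 a higher value in the collecting duct, which is 69.6% lower against 54.9% of all tested genes. The collecting duct lay below every anlage array for 19 members (41.3%, against 24.3% of all tested genes) and above every anlage array for 3 (6.52%, against 17.3%). The median difference was −0.26 for the members and −0.06 for all tested genes. In these pooled sections, fewer dividing cells, less transcript per dividing cell, a different mix of cells and RNA quality cannot be told apart. With a common array median in place of quantile normalisation, the median of all genes moved by −0.175 to −0.24 and that of the members to −0.58. The split of the members was then 44 lower to 2 higher, and 12 lay below every anlage array (26.1%, against 20.4% of all tested genes).

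**Figure D1:**
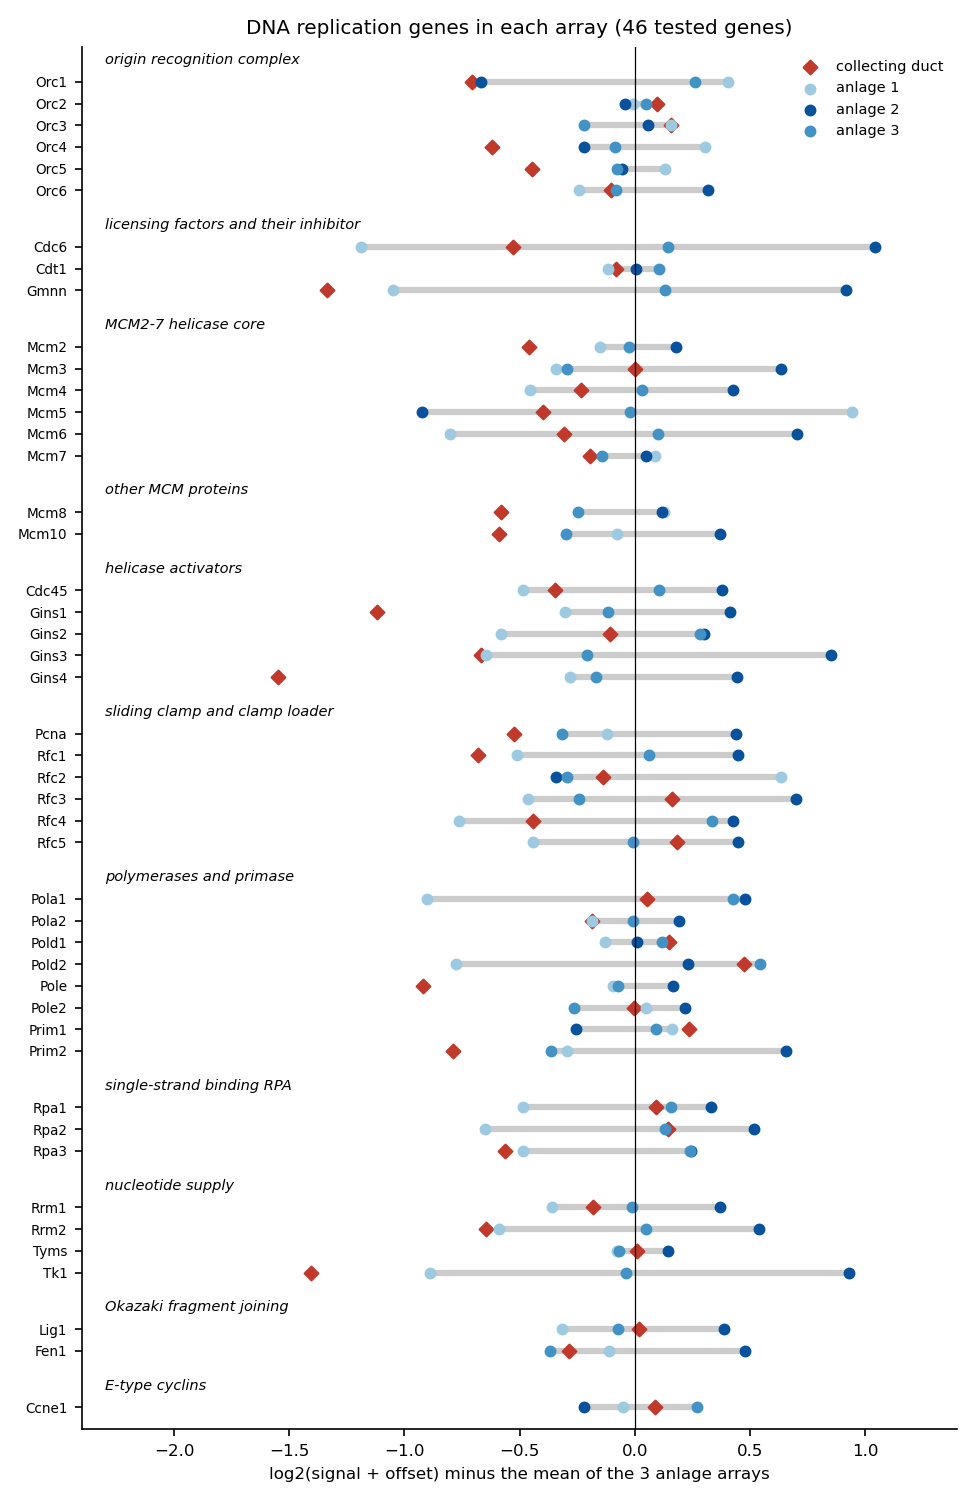
Value of each of the 46 tested DNA replication genes in each array (log2 of signal plus offset, minus the mean of the 3 anlage arrays), grouped by role. Red diamonds are the collecting duct array, blue points the anlage arrays and grey bars the anlage range; the diamond lies left of the bar for 19 genes and right of it for 3, and anlage array 2 (dark blue) is the highest anlage array for 32.

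The spread within the anlage was as large as the difference between the structures for most members. For 38 of the 46 members (82.6%, against 81% of all tested genes) the 3 anlage arrays spanned more than the size of the difference. Anlage array 2 gave the highest anlage value for 32 members (69.6%, against 45.8% of all tested genes), and array 1 the lowest for 30 (65.2%, against 52.7%). The collecting duct array therefore compared differently with each of them. Against array 2 it was lower for 38 of 46 members, with a median of −0.48 (all tested genes −0.21, 61.4% lower). Against array 3 it was lower for 33, with a median of −0.28 (all tested genes −0.12, 57.7% lower). Against array 1 it was lower for 24, and the median was −0.002 (all tested genes 0.09, 44.7% lower). These 3 comparisons share the 1 collecting duct array. Without anlage array 2 the median difference of the members was −0.08 in place of −0.26, beside −0.01 for all tested genes. Leaving out array 2 also brought the difference of Gmnn from −1.34 to −0.84, that of Tk1 from −1.41 to −0.87 and that of Cdc6 from −0.53 to −0.0044. It brought Prim2 to −0.425, Rfc1 to −0.43, Rrm2 to −0.39, Mcm10 to −0.38, Pcna to −0.31 and Fen1 to −0.048.

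Nephron progenitors are dividing cells next to the early tubules, and the sum of their markers was also highest in anlage array 2. The summed normalised signal of all 6 markers was 8689 in the collecting duct and 7661, 21490 and 5819 in anlage arrays 1, 2 and 3. None of them was at 0, and Cited1 lay below the limit for dim genes. Six2, a defining factor of these cells, stood at 9.86 in the collecting duct and 10.86, 11.10 and 9.82 in the anlage. Osr1 ran the other way, at 7.74 against 9.56, 8.27 and 8.42, with array 2 the lowest of the anlage. Eya1, the brightest of the 6 in array 2, stood at 12.44 against 11.42, 13.69 and 11.39. The endothelial sum over 6 markers was 2210 against 4166, 9072 and 8501. A highest sum in array 2 was therefore not particular to the progenitors. The ureteric tip, erythroid, and proximal tubule and podocyte sums were highest there too. So was the macrophage and leukocyte sum, though array 1 came close to it. The stromal sum went another way and was highest in array 3. The part of any of these cell types, and of RNA quality, in the replication gene values was not tested.

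**Figure D2:**
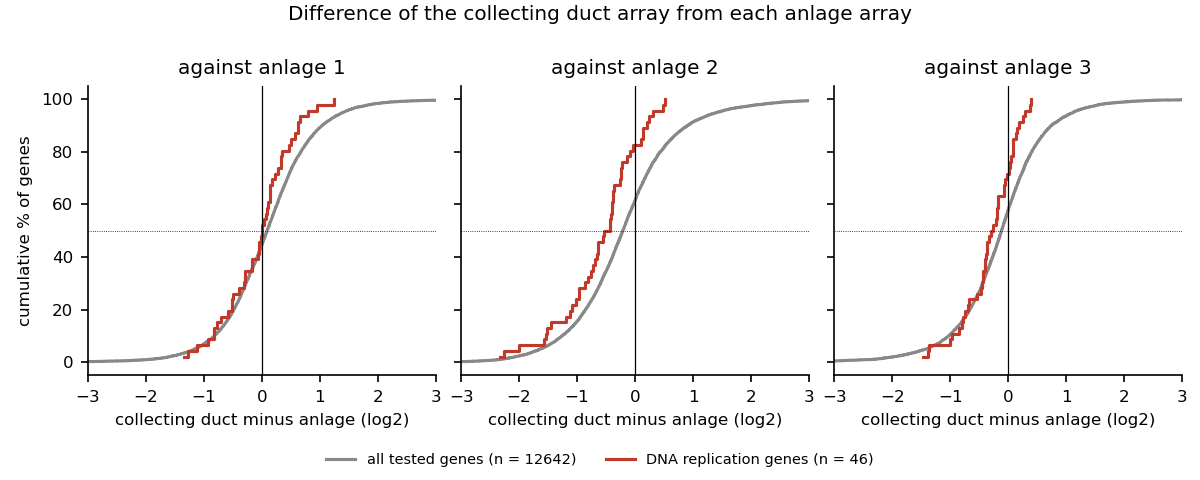
Cumulative share of genes (y axis, percent) by the log2 difference of the collecting duct array from anlage array 1, 2 or 3 (x axis, shown from −3 to 3), for the 46 DNA replication genes in red and all 12642 tested genes in grey. The red line crosses the middle of the y axis at −0.002 against array 1, −0.48 against array 2 and −0.28 against array 3.

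Subunits of the origin recognition complex showed small differences, with 4 of 6 lower in value, 3 below every anlage array and 1 above. Of all tested genes, 54.9% were lower, 24.3% below every anlage array and 17.3% above. These shares stand beside the counts of this and the following role groups, which are too small to be told from them. Orc1, the ATPase subunit that is most tied to the cell cycle, stood at 9.69 in the collecting duct and at 10.80, 9.73 and 10.66 in anlage arrays 1, 2 and 3. The collecting duct value lay only 0.04 below array 2, so the difference of −0.71 ± 0.64 (SE) rested on arrays 1 and 3. The other Orc1 probe set, 1422663_at, had another order, at 9.06 against 8.95, 10.66 and 9.24, with the collecting duct above array 1 and array 2 highest. Orc4 stood at 11.76 against 12.68, 12.16 and 12.29, a difference of −0.62 ± 0.51. Its other probe sets above the dim limit differed by 0.32 and −0.05, and the mean over its probe sets differed by −0.20. Orc5 also lay below all anlage arrays (−0.45), while Orc2 lay 0.05 above them, with an anlage range of 0.09.

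Among the licensing factors the clearest spread was in geminin and Cdc6. Gmnn encodes geminin, which binds Cdt1 and blocks the loading of further helicases after S phase has begun. Gmnn stood at 11.77 in the collecting duct and at 12.05, 14.02 and 13.23 in anlage arrays 1, 2 and 3. The collecting duct had the lowest value of the 4 arrays, and the difference was −1.34 ± 0.80 (SE). Cdc6 stood at 10.45 against 9.79, 12.03 and 11.12, so the collecting duct lay inside the anlage range of 2.24, the widest of all 46 tested members. Cdt1 differed little, at 14.32 against 14.29, 14.41 and 14.51. Its collecting duct value lay within the anlage range, at a difference of −0.08 ± 0.37.

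The helicase core was measured in all 6 subunits, and no subunit stood far outside the anlage arrays. Mcm2 stood at 13.10 in the collecting duct and 13.41, 13.74 and 13.53 in anlage arrays 1, 2 and 3, below all of them by at least 0.305. Mcm7 stood at 15.37 against 15.65, 15.61 and 15.42, below the lowest by 0.05. By the probe sets that stood for the genes, these were the 2 subunits with no overlap between the structures. Their differences were −0.46 ± 0.43 and −0.19 ± 0.30 (SE). The other probe set of Mcm2 differed by 0.04, so its sign depended on the probe set. In Mcm7, probe set 1416030_a_at put the collecting duct inside the anlage range, at 11.52 against 12.25, 11.11 and 11.75. Its probe sets 1416031_s_at and 1439269_x_at put the collecting duct below every anlage array.

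The other 4 core subunits overlapped in the probe sets that stood for them. Mcm4 stood at 13.55 against 13.33, 14.21 and 13.82. Mcm6 stood at 12.77 against 12.27, 13.78 and 13.18. Both had array 2 highest and array 1 below the collecting duct, as did Mcm3, at 13.03 against 12.69, 13.66 and 12.73. Mcm5 had the reverse order within the anlage, at 13.09 against 14.43, 12.56 and 13.47. The differences of Mcm3, Mcm4, Mcm5 and Mcm6 were 0.002 ± 0.57, −0.23 ± 0.50, −0.40 ± 0.75 and −0.31 ± 0.67, and those of Mcm3, Mcm5 and Mcm6 changed sign under some settings. Of the MCM relatives outside the core, Mcm10, which helps start the fork, stood at 11.61 against 12.12, 12.57 and 11.90. Mcm8, a helicase of recombination repair, stood at 9.61 against 10.31, 10.30 and 9.94. Both lay below every anlage array, at differences of −0.59 ± 0.53 and −0.58 ± 0.52.

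Genes for the helicase activators had the lowest values relative to the anlage. All 5 had a lower value under the main setting (54.9% of all tested genes), and 3 of them lay below every anlage array (24.3% of all tested genes). The group median was −0.67. The value of Gins2 was positive when its probe sets were averaged, without anlage array 2, without array 3, and without probe sets named _x_at or _s_at. Gins4 stood at 10.80 in the collecting duct and at 12.07, 12.79 and 12.18 in anlage arrays 1, 2 and 3. It lay 1.27 below the lowest anlage array, the widest such gap among the members, and its difference was −1.55 ± 0.55 (SE), with a 95% interval from −2.89 to −0.20. Its adjusted p over all genes was 1, and across the settings tried the difference ranged from −1.79 to −1.23. Gins1 stood at 11.21 against 12.03, 12.74 and 12.21, a gap of 0.82, and its difference was −1.12 ± 0.54. The other Gins1 probe set, 1457981_x_at, put the collecting duct inside the anlage range, at 8.05 against 7.88, 9.58 and 8.87. Gins1 and Gins4 are subunits of the same GINS tetramer, and both kept their sign in every setting. Of their partners, Gins3 lay only 0.02 below the lowest anlage array, and Gins2 and Cdc45 lay within the range. The other Gins3 probe set, 1453050_at, put the collecting duct inside the range, at 8.74 against 8.95, 9.60 and 8.41.

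Pcna, the sliding clamp that tethers polymerases to DNA, stood at 14.04 in the collecting duct and at 14.44, 15.00 and 14.24 in the anlage arrays. It lay below all of them by 0.21, and the difference of −0.52 ± 0.44 (SE) had a 95% interval from −1.60 to 0.56. Rfc1, the large subunit of the loader that opens the clamp, stood at 11.83 against 12.00, 12.96 and 12.58, below the lowest by 0.17. The other 4 loader subunits, Rfc2 to Rfc5, all lay inside the anlage range, with differences from −0.44 to 0.18. The difference of Rfc1 was −0.68 ± 0.57 (SE), or −0.087 when its probe sets were averaged, and whether it departs from that of the other subunits was not tested.

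Polymerase and primase genes were split evenly, with 4 of 8 lower and 4 higher in value and a median of 0.02. Pole encodes the catalytic subunit of polymerase epsilon, which copies the leading strand. Pole stood at 10.84 in the collecting duct and at 11.66, 11.92 and 11.68 in the anlage arrays. The anlage values were close together, the collecting duct lay 0.83 below the lowest of them, and the difference was −0.92 ± 0.51 (SE), with a range from −1.12 to −0.77 over the settings. Its partner subunit Pole2 differed by −0.003. Prim2, the large primase subunit, stood at 10.30 against 10.80, 11.75 and 10.73, a difference of −0.79 ± 0.63. Its probe set 1418035_a_at differed by −1.45, and 1445474_at by 0.0002, with the collecting duct inside the anlage range in the latter. Prim1, the catalytic primase subunit, lay 0.07 above the highest anlage array and Pold1, the catalytic subunit of polymerase delta, 0.03 above. The other Prim1 probe set, 1449061_a_at, put the collecting duct below every anlage array, at 13.15 against 13.39, 13.79 and 13.77. With Orc2 these were the 3 members above every anlage array, and the sign of all 3 turned with arrays brought to a common median. Pold2 had the largest positive difference of the members, 0.48 ± 0.68, and lay within the anlage range.

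RPA coats single-stranded DNA at the fork. Its small subunit Rpa3 stood at 10.77 in the collecting duct and at 10.85, 11.58 and 11.57 in the anlage arrays, below the lowest by 0.07. Rpa2 stood at 12.24 against 11.44, 12.61 and 12.23, inside the range, and Rpa1 was inside the range as well. The differences were −0.56 ± 0.58 (SE) for Rpa3, 0.14 ± 0.62 for Rpa2 and 0.09 ± 0.44 for Rpa1. Those of Rpa1 and Rpa2 changed sign under some settings. The other Rpa2 probe set, 1454011_a_at, differed by −0.91 and put the collecting duct below every anlage array.

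Of the genes for nucleotide supply, Tk1 and Rrm2 had the lowest values relative to the anlage, by the probe sets that stood for them. Tk1 salvages thymidine and is a gene of S phase. Tk1 stood at 9.64 in the collecting duct and at 10.16, 11.98 and 11.01 in anlage arrays 1, 2 and 3. The collecting duct was lowest, 0.52 below array 1, and the difference was −1.41 ± 0.79 (SE). Rrm2, the regulated subunit of ribonucleotide reductase, stood at 14.81 against 14.86, 15.99 and 15.502, with a difference of −0.65 ± 0.49. The collecting duct and anlage array 1 were nearly level for Rrm2, and array 2 was highest for both genes. The other Rrm2 probe sets put the collecting duct inside the anlage range. Probe set 1448226_at stood at 12.941 against 12.655, 14.9 and 13.575, and 1416120_at at 11.329 against 11.904, 11.443 and 11.286. Rrm1, the large reductase subunit, stood at 13.51 against 13.33, 14.06 and 13.68 and did not separate the structures. Tyms, which makes thymidylate, differed by 0.01 ± 0.50. Its other probe set above the dim limit, 1427811_at, differed by −0.61, and the mean over all its probe sets by −0.65.

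Fen1 and Lig1 trim and seal the pieces of the lagging strand. Fen1 stood at 13.93 in the collecting duct and at 14.10, 14.69 and 13.85 in the anlage arrays. Lig1 stood at 12.37 against 12.03, 12.74 and 12.28. Both overlapped the anlage, with differences of −0.29 ± 0.47 and 0.02 ± 0.53 (SE). The cyclin gene Ccne1 overlapped too, at 13.67 against 13.54, 13.37 and 13.86.

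Sign and order depended on the probe set for part of the members. Of 32 members with more than 1 probe set above the dim limit, 12 had probe sets on both sides of 0. Over all 92 member probe sets above the limit, 63 were highest in array 2 within the anlage and 13 were lowest there. By gene, 45.8% of all tested genes were highest in array 2 and 26.3% lowest. The probe set counts, and that of genes with both signs, were not made over all genes. Some of the 13 member probe sets lowest in array 2 stood far apart from the probe set that represented the gene. For Rrm1 the deposited signal of probe set 1448127_at was 8995 in the collecting duct and 15460, 847 and 4393 in anlage arrays 1, 2 and 3, while probe set 1415878_at read 10898 against 8911, 19361 and 13695. The former was 18.3-fold higher in anlage array 1 than in array 2, and the latter 2.17-fold lower.

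Rfc1 gave the same picture, with 1451920_a_at at 2158 against 3445, 189 and 710, and 1418342_at at 3602 against 3880, 8770 and 5983. In Mcm3, probe set 1426653_at read 434 against 1071, 60.4 and 49.7. Mcm5 was represented by 1415945_at, lowest in array 2, although its probe set 1436808_x_at read 5783 against 7106, 17574 and 11110 and put the collecting duct below every anlage array. From highest to lowest, the contrary probe sets of Rrm1 and Rfc1 ran anlage array 1, collecting duct, array 3, array 2. Other orders occurred, since that of Mcm3 was lowest in array 3 and 1415945_at of Mcm5 had array 3 above the collecting duct. The 3′ to 5′ ratios of Gapdh and actin rose from array 1 through the collecting duct and array 3 to array 2. That of the transferrin receptor was lower in the collecting duct (1.378) than in array 1 (1.419). Where each probe set lies on its transcript was not analysed here, and the part of RNA quality was not tested.

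**Figure D3:**
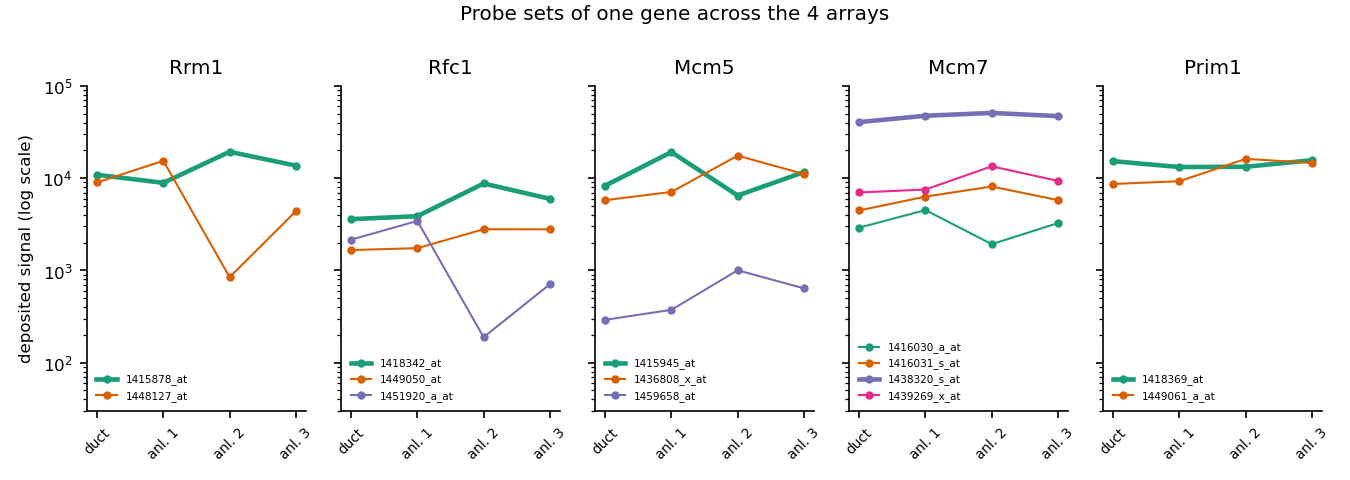
Deposited signal (log scale) of each probe set above the dim limit for Rrm1, Rfc1, Mcm5, Mcm7 and Prim1 in the collecting duct array and anlage arrays 1 to 3; the thick line is the probe set that stood for the gene. In Rrm1 and Rfc1 a probe set drops in anlage array 2, to 847 and 189, where the thick line is highest.

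Other lists of replication and its control differed from one another, and 0 genes were called in each. Their counts stand beside 54.9% of all tested genes with a lower value and 24.3% below every anlage array. Of 27 tested genes that act at the fork outside the list, 18 had a lower value, 6 lay below every anlage array and 2 above, and the median was −0.27. Chtf8, part of an alternative clamp loader, stood at 7.37 in the collecting duct and 8.55, 10.17 and 9.26 in the anlage arrays. Its difference of −1.95 ± 0.73 (SE) was −1.11 with the larger offset, at the 50th percentile. Rmi2, of the complex that dissolves joined DNA strands, differed by 0.85 ± 0.62 (SE) in the other direction. All 7 tested genes of chromatin assembly at the fork had lower values (median −0.45) and 3 lay below every anlage array, among them Chaf1b, a subunit of the assembly factor CAF-1 (−0.65 ± 0.52), and Hells, a chromatin remodeller (−0.62 ± 0.50). With the mean of their probe sets these differences were −0.25 and −0.27.

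The E2F and pocket protein list had 8 of 13 lower values, 3 below every anlage array and a median of −0.28. Tfdp2, a dimer partner of E2F, differed by −1.03 ± 0.65 (SE) and E2f2 by −0.89 ± 0.71, while E2f1 differed by 0.42 ± 0.75. With the mean of their probe sets Tfdp2 differed by −0.0013, E2f2 by −0.50 and E2f1 by −0.036. Of 8 tested kinases and cyclins of the step into S phase, 5 had a lower value and 1, Ccnd1, lay below every anlage array, with a median of −0.18. Of 19 tested mitosis genes, 17 had lower values and 10 lay below every anlage array, with a median of −0.55. Mad2l1, of the spindle checkpoint, stood at 12.25 against 12.97, 13.56 and 13.32, and Nusap1, which binds spindle microtubules, at 12.32 against 12.61, 13.46 and 13.56. The difference of Nusap1 was −0.89 ± 0.56, or −0.23 with the mean of its probe sets. The proliferation marker Mki67 and the topoisomerase gene Top2a differed by less, −0.14 ± 0.43 and −0.12 ± 0.38, and both changed sign without anlage array 2. Of 5 tested CDK inhibitors, 2 had a lower value, 0 lay below every anlage array and 2 above, with a median of 0.20. Cdkn1c, which encodes the cell cycle inhibitor p57, stood at 15.44 against 15.96, 14.19 and 14.63, and Cdkn2c at 9.87 against 8.68, 11.02 and 11.97. Both overlapped the anlage, and the difference of Cdkn2c, −0.69 ± 1.23, was 0.03 without array 3.

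Under every setting tried the median of the replication genes lay below that of all tested genes. The gap was −0.20 in the main setting and ranged from −0.34 with arrays scaled to a common median to −0.07 without anlage array 2. Of the 46 members, 24 kept the sign of their difference in every setting, 23 of them lower and 1, Pold2, higher. The common median alone turned 12 members from higher to lower, and 67.5% of all tested genes were lower under it. The share of all genes that kept their sign was not computed, so the split has no background beside it.

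**Figure D4:**
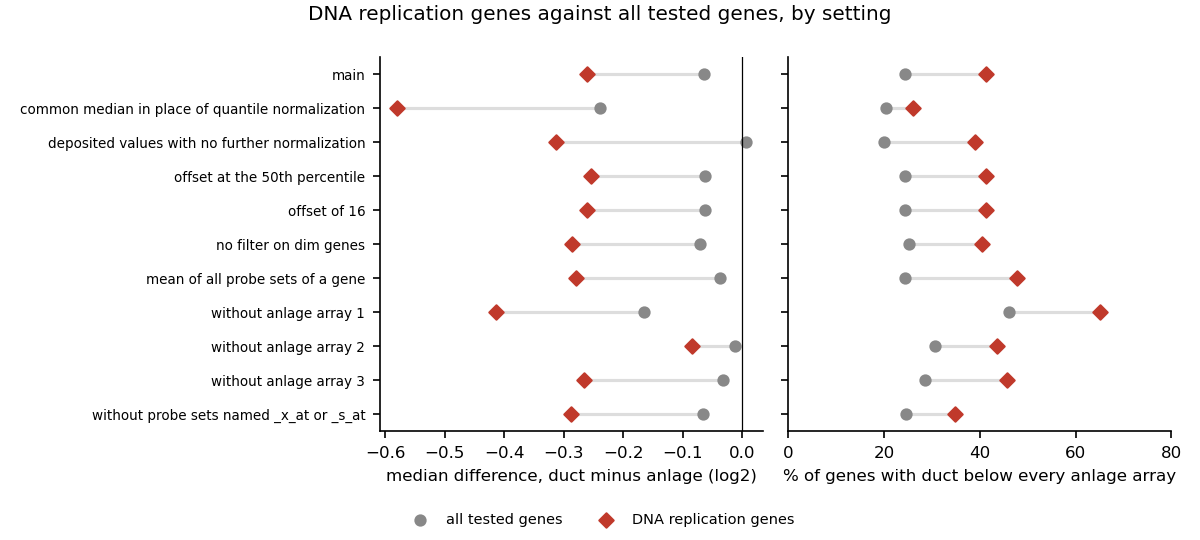
Left, median difference of the collecting duct array from the anlage (log2) and right, percent of genes with the collecting duct below every anlage array, for DNA replication genes (red diamonds) and all tested genes (grey points) under each setting (rows; leaving out the intensity trend gives the main values and is not drawn). The red diamond lies left of the grey point in every row of the left plot, and the gap is smallest, at −0.07, without anlage array 2.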

How the data were processed

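The authors deposited linear-scale intensity values per probe set, which the submitters' processing notes tie to GCOS, without a version or algorithm in the sources read here. The authors had scaled each array, since the mean after trimming 2% at each end was 1500 in all 4 deposited columns. Here the arrays were quantile normalised and log2(signal + 109.6) was taken, the offset being the 25th percentile. A fold on this scale understates changes of dim genes. Of 45037 probe sets left after 64 controls, 34945 had 1 gene symbol in the platform table. The brightest stood for its gene, and genes with a mean under 8.416 (40th percentile) were not tested, which left 12642 of 18193. Limma 3.58.1 (R 4.3.3; lmFit, eBayes with trend, two-sided) compared the structures. Its 2 residual degrees of freedom came from the anlage arrays, and the collecting duct array was assumed to vary alike. An exact permutation test cannot go below p = 0.25 and was not used. For arrays, their number limits the precision.

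Values in every array were given for a fixed set of members (the helicase core, Pcna, the E-type cyclins, the ribonucleotide reductase genes and the licensing factors) and for the 2 members with the largest absolute difference in each other role group. From each other list of the pathway the 2 largest were named, with Mki67, Top2a, E2f1 and Cdkn1c. Other members named singly were chosen after their values were seen. Members, lists and rules were chosen with earlier results of these data known. In refits without an array, probe sets and tested genes were kept. Motifs were searched in RefSeq promoter windows of GRCm38.p6.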

Additional observations from a re-analysis of the deposited data

How the results depend on the processing

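Each result was recomputed under 11 alternatives, of which leaving out probe sets named _x_at or _s_at was chosen after seeing the data. No member was called under any of them. Without 1 anlage array the count of genes called over all genes ranged from 0 to 10, the 10 without array 2. Members below every anlage array numbered 12 with arrays scaled to a common median (26.1%, against 20.4% of all tested genes). Without 1 anlage array fewer arrays remained to overlap. Members below numbered 30 (65.2%), 20 (43.5%) and 21 (45.7%) without array 1, 2 or 3. The shares of all tested genes were then 46.2%, 30.6% and 28.6%. Members above numbered 0 with the common median, against 10.2% of all tested genes. Without array 1, 2 or 3 they numbered 5 (10.9%), 9 (19.6%) and 5 (10.9%), against 27.1%, 28.1% and 22.5%. The median difference of the members was −0.58 with the common median and −0.41, −0.08 and −0.27 without anlage arrays 1, 2 and 3. No paired analysis was possible because the groups share only replicate number 3.

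The differences that changed sign were up to −0.69 in the main setting, for Cdkn2c, with −0.46 for Mcm2, 0.42 for E2f1 and −0.40 for Mcm5. With the common median these were Ccne1 (−0.29), Lig1 (−0.28), Mcm3 (−0.33), Orc2 (−0.19), Orc3 (−0.0537), Pola1 (−0.25), Pold1 (−0.20), Prim1 (−0.14), Rfc3 (−0.0595), Rfc5 (−0.15), Rpa1 (−0.25) and Rpa2 (−0.17). With the deposited values not normalised further they were Ccne1 (−0.022), Lig1 (−0.012) and Mcm3 (−0.0599). With the mean of all probe sets they were E2f1 (−0.0364), Gins2 (0.30), Mcm3 (−0.27), Orc3 (−0.17), Pola2 (0.12), Pole2 (0.40), Prim1 (−0.13), Rpa2 (−0.38), Rrm1 (0.56), Top2a (0.0463) and Tyms (−0.65). With the offset at the 50th percentile Mcm3 read −0.000107. Without probe sets named _x_at or _s_at they were Gins2 (0.70), Mcm2 (0.0446) and Mcm3 (−0.32). The cause was not tested.

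Without 1 anlage array the difference ranged from −0.0227 to 0.22 for Ccne1, −1.75 to 0.0297 for Cdkn2c, −0.0655 to 0.73 for E2f1, −0.42 to 0.0359 for Gins2, −0.14 to 0.20 for Lig1, −0.17 to 0.31 for Mcm3 and −0.86 to 0.0708 for Mcm5. It ranged from −0.73 to 0.0395 for Mcm6, −0.30 to 0.082 for Mki67, −0.23 to 0.053 for Orc6, −0.42 to 0.27 for Pola1, −0.14 to 0.10 for Pole2, −0.29 to 0.19 for Rfc2 and −0.0759 to 0.47 for Rfc3. For Rfc5 it was −0.0346 to 0.39, for Rpa1 −0.15 to 0.27, for Rpa2 −0.19 to 0.38, for Rrm1 −0.37 to 0.000451, for Top2a −0.25 to 0.0589 and for Tyms −0.0286 to 0.0803.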

Other observations

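The D-type cyclins, which drive the step before replication, differed from one another across the arrays. Ccnd1 stood at 14.23 in the collecting duct and at 15.77, 15.14 and 15.74 in anlage arrays 1, 2 and 3, so that the collecting duct lay below all of them. Its difference was −1.32 ± 0.39 (SE), and its adjusted p over all genes (limma) was 1. Ccnd2 stood at 15.82 in the collecting duct and at 16.06, 12.27 and 14.68 in the anlage, where array 2 lay far below the other arrays. Its difference was 1.48 ± 1.32, or 0.48 without array 2. That error was the widest among the genes named from the other lists of the pathway. Array 2, high for most replication genes, was the low one for Ccnd2. Both genes were named by the rule for the other lists of the pathway.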
